A study of Homo sapiens with 9 samples.

Results

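The serpins are a protein family named as serine protease inhibitors, and the 30 serpin genes described here were taken by symbol, as every gene written SERPIN with a clade letter and a number in the annotation of the array. They are 30 of 19775 genes measured, each read through its brightest probe set that names no other gene, and family members outside these 30 were not analysed here. The cells were HT1080, a human fibrosarcoma line grown as 1 line, so that the 3 cultures of a group share 1 genetic background. They lay on top of a gel of fibrillar bovine dermal collagen (1.7 mg per ml), adhered for 24 h in medium with 10% fetal calf serum, and were then treated or left. The groups were cells given a protease inhibitor mix for 24 h (PI 24 h), cells given the mix for 4 h (PI 4 h) and untreated cells, with 3 arrays each. The mix held 100 µM GM6001 against metalloproteases, 50 µM pepstatin A against aspartic proteases, 250 µM E64 against cysteine proteases, and 2 µM each of aprotinin and leupeptin, which act on serine proteases and, for leupeptin, also on cysteine proteases. The series text calls the mix a kinase inhibitor, whereas the treatment protocol lists protease inhibitors alone. The untreated arrays are titled as vehicle, and neither the vehicle nor the hour at which untreated cells were harvested is given in the sources used here.

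An inhibitory serpin works once: it presents a loop as bait, the protease cuts it, and the serpin snaps into a new fold that traps the protease in a covalent complex. Plasma serpins of this kind restrain clotting, fibrinolysis and complement, and clade B serpins mostly stay inside cells, where several guard against proteases of granules and lysosomes. Some members inhibit no protease, among them SERPINH1 (HSP47), the chaperone of the endoplasmic reticulum that binds folded procollagen. In tumour cells on collagen the family meets the plasminogen system, whose urokinase and tissue activators are classic serpin targets.

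The promoter sequences of 3 serpins are shown because their genes carry the levels and differences described here and because their windows differ in kind: SERPINH1 had the largest difference between groups, SERPINB8 was the bright serpin that lay higher in PI 24 h arrays, and SERPINE2 was bright on every array. Each is 1 RefSeq window of GRCh38.p14, from 250 bases before to 50 after a start of the gene, read 5′ to 3′ along the gene. Capitals mark overlapping heat shock triplets in SERPINH1 (chr11:75562003-75562302, + strand), CCAAT boxes or their complement in SERPINE2 (chr2:224031429-224031728, − strand), and a CCAAT box with overlapping TATA letters in SERPINB8 (chr18:63969831-63970130, + strand).
SERPINH1: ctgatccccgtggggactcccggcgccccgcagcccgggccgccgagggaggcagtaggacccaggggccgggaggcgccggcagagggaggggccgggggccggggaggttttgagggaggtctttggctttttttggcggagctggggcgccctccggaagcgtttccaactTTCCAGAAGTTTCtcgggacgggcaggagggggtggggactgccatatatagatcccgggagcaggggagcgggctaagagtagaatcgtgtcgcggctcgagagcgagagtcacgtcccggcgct
SERPINE2: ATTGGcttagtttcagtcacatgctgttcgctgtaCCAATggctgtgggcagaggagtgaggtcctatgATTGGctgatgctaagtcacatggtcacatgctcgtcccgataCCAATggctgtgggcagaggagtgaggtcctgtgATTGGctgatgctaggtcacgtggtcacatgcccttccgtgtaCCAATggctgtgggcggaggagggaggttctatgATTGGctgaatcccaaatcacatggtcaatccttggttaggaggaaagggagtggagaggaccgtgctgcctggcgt
SERPINB8: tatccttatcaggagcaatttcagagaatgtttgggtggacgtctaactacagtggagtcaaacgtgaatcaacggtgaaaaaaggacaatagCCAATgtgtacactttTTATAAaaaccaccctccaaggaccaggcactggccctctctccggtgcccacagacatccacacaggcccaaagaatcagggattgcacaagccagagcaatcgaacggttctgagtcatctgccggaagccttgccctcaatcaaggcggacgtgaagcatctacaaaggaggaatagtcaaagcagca

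The run in capitals in SERPINH1 begins 76 bases before the start and joins a TTCNNGAA to a GAANNTTC through a shared triplet, the alternating layout to which heat shock factors are known to bind. Searched on both strands, such a joined pair stood in 172 of 35116 windows of the table (0.49%) and, among the 33 windows of 23 serpin genes that the table holds, in this 1 alone. TTCNNGAA stood in 7.74% of all windows and GAANNTTC in 6.77%. SERPINE2 held 7 copies of CCAAT in its window, a letter string found in 34.6% of all windows, while 6 or more copies were found in 43 windows (0.122%). SERPINB8 held 1 CCAAT and 2 overlapping matches to TATAA, which 20.4% of windows hold. GGGCGG, the GC box, was in 45.0% of windows, in the SERPINE2 window once and in the windows shown for SERPINH1 and SERPINB8 not at all. SERPINH1 and SERPINE2 each had a second window, which held no heat shock triplets. These matches describe letters, and binding was not measured.

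Most of the family was dim in these cells. A mean intensity of 50 over the 9 arrays was reached by 8 of the 30 serpins (26.7%), against 8838 of all 19775 genes (44.7%). The 8 were SERPINE2, SERPINH1, SERPIND1, SERPINI1 and the clade B genes SERPINB1, SERPINB5, SERPINB7 and SERPINB8. By clade, 4 of 11 genes of clade B reached 50 and 0 of 10 of clade A, the clade of the liver's plasma serpins. Clades D, E and H had 1 gene each and it reached 50, clade I had 1 of 2, clade F 0 of 2, and clades C and G 0 of 1 each. Just inside the line lay SERPINI1, with a mean of 50.59, and just outside it SERPINA1, the antitrypsin gene, with 29.32. Probe sets differ in how brightly they bind, so intensities place each gene among its own arrays and do not rank one serpin's mRNA above another's.

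**Figure D1:**
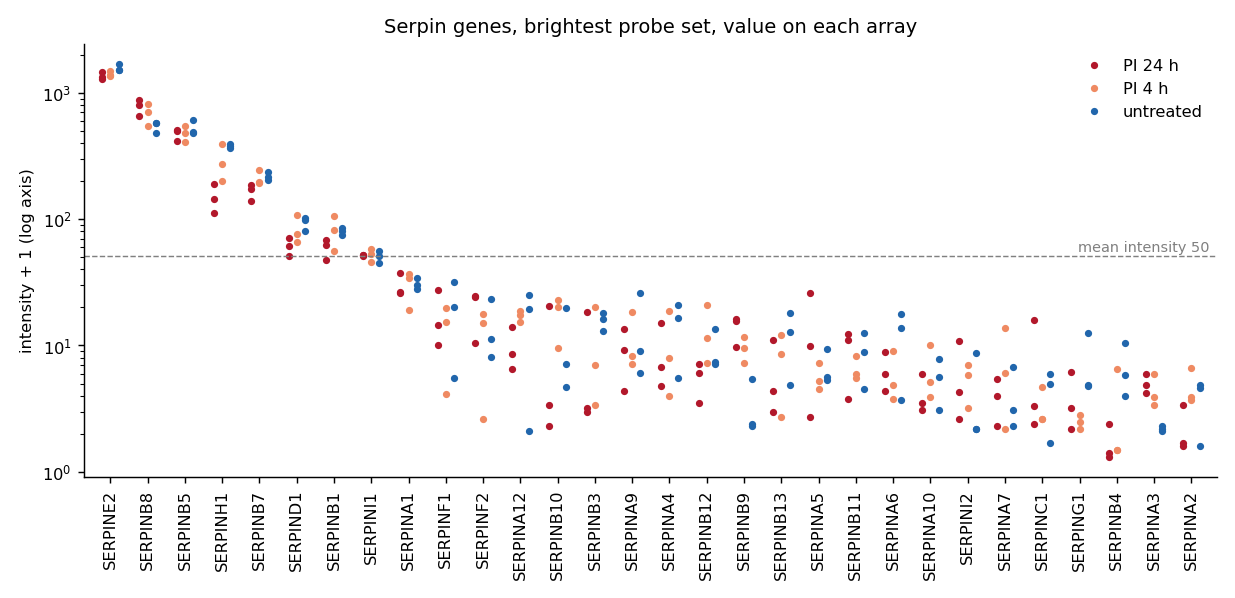
Intensity plus 1 (log axis) of the 30 serpin genes on each of 9 arrays, brightest probe set per gene, with PI 24 h (red), PI 4 h (orange) and untreated (blue) points side by side. The dashed line marks a mean intensity of 50, which 8 genes reach, and the other 22 have means between 2.556 (SERPINA2) and 29.32 (SERPINA1).

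SERPINH1, the collagen chaperone, had the largest difference of the family, with less signal after 24 h of inhibitor. It read 110.1, 190.3 and 144.5 on the PI 24 h arrays, 269.8, 391.3 and 199.6 on the PI 4 h arrays, and 362.2, 380.3 and 388.9 on the untreated arrays. All PI 24 h arrays lay below every PI 4 h and untreated array, and the PI 4 h arrays were spread from near the PI 24 h range to the top of the untreated range. The means were 148.3 ± 40.2, 286.9 ± 97 and 377.1 ± 13.6 in PI 24 h, PI 4 h and untreated cells (SD, n = 3 each). On the scale of log2(intensity + 16), PI 24 h minus untreated was −1.29 (SE 0.24, 95% interval −1.82 to −0.75), a ratio of 0.41. limma's adjusted p over all genes was 0.0541 (unadjusted 0.000364, rank 131 of 19775), which misses the threshold of 0.05, so the difference was not called. Counting SERPINH1 itself, 7 genes of the whole table had a difference at least this far below 0 at 24 h, and 4 of them had a mean intensity of 50 or more. PI 4 h minus untreated was −0.42 (interval −0.96 to 0.11, limma adjusted p = 0.524). PI 24 h minus PI 4 h was −0.86 (interval −1.40 to −0.33, limma adjusted p = 0.215).

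The call on SERPINH1 at 24 h turned with the settings. It passed under 6 of 18 other settings, for example with a pseudocount of 64 (limma adjusted p = 0.0161) or without the second PI 4 h array (0.031), although PI 4 h arrays enter that comparison through the shared estimate of spread alone. SERPINH1 has 1 probe set naming it alone, so no second probe set of the gene stands beside this reading. The arrays' RNA measures moved with the groups too: ACTB probe sets at the 5′ end, set against those at the 3′ end as a reading of RNA integrity, gave ratios of 0.697 ± 0.038 in PI 24 h, 0.723 ± 0.133 in PI 4 h and 0.893 ± 0.034 in untreated arrays (SD, n = 3 each). Among the PI 4 h arrays the order of SERPINH1 was that of this ratio, with 391.3 at a ratio of 0.871, 269.8 at 0.682 and 199.6 at 0.615. In the other groups the orders differed: 110.1, 190.3 and 144.5 stood at 0.71, 0.727 and 0.654 on PI 24 h arrays, and 362.2, 380.3 and 388.9 at 0.855, 0.922 and 0.902 on untreated arrays. Most mesenchymal markers also read lower at 24 h, with 8 of 10 negative for PI 24 h minus untreated and a median of −0.31 (all genes 0.01), and 0 of 10 called. Positive were VIM (0.23, limma adjusted p = 0.435) and CD44 (0.16, 0.506), both without overlap of arrays, where 21.3% of all bright genes lay higher without overlap. Of the 13 probe sets of CD44, bright ones pointed both ways at 24 h, such as 0.31 at a mean of 1557 and −0.31 at a mean of 786.9. VIM averaged 11290 ± 406 in PI 24 h and 9681 ± 1020 in untreated cells, and CD44 4075 ± 206 and 3634 ± 102. CAV1 (caveolin 1) averaged 2018 ± 156 in PI 24 h and 3049 ± 66.4 in untreated cells (−0.59, limma adjusted p = 0.0528), and FN1 (fibronectin) 974.1 ± 80.9 in PI 24 h and 1399 ± 131 in untreated cells (−0.51, 0.156). The part of the ACTB ratio and of these markers in the SERPINH1 difference was not tested. In bulk RNA, fewer cells that express a gene and less of its RNA in each cell cannot be told apart.

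**Figure D2:**
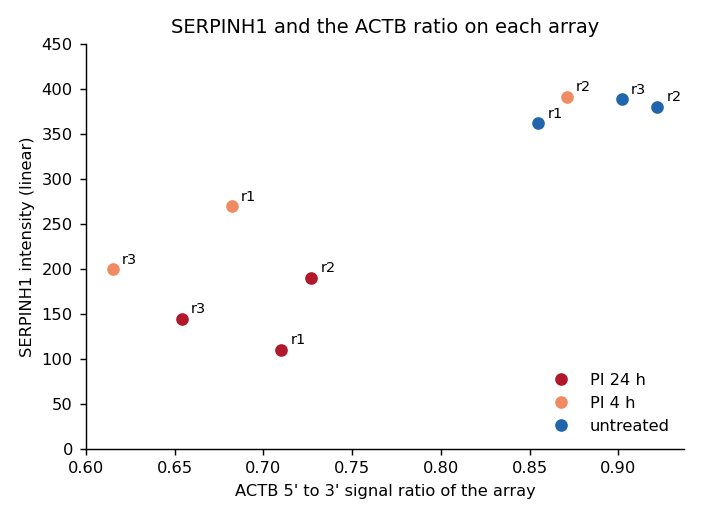
SERPINH1 intensity (linear) against the 5′ to 3′ signal ratio of ACTB on each of 9 arrays, labelled by replicate, with PI 24 h in red, PI 4 h in orange and untreated in blue. The untreated arrays lie at ratios of 0.855 to 0.922 with SERPINH1 at 362.2 to 388.9, beside 1 PI 4 h array at 0.871 and 391.3, and the PI 24 h arrays lie at 0.654 to 0.727 with SERPINH1 at 110.1 to 190.3.

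SERPINB8, an intracellular clade B serpin known as an inhibitor of furin in biochemical assays, lay the other way. It read 654.1, 873.1 and 800.6 on PI 24 h arrays, 818.1, 545.8 and 706.6 on PI 4 h arrays, and 580.1, 478.5 and 570 on untreated arrays. Every PI 24 h array exceeded every untreated array, while the PI 4 h arrays overlapped both. PI 24 h averaged 775.9 ± 112 and untreated 542.9 ± 56 (SD, n = 3 each), a difference of 0.50 (SE 0.18, interval 0.11 to 0.89, limma adjusted p = 0.206). PI 4 h averaged 690.2 ± 137, a difference of 0.32 from untreated (interval −0.07 to 0.72, limma adjusted p = 0.503). A dimmer probe set of the gene, with a mean of 24.37, read −0.12 for PI 24 h minus untreated, so the probe sets pointed opposite ways.

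The bright serpins known to inhibit thrombin or the plasminogen activators were SERPIND1, SERPINE2 and SERPINI1, and none was called. SERPIND1, heparin cofactor II, a thrombin inhibitor made mostly by liver, read 69.7, 50.3 and 60.5 on PI 24 h arrays, 107.1, 65 and 75.8 on PI 4 h arrays, and 97.8, 79.6 and 101.2 on untreated arrays. The PI 24 h arrays lay below all untreated arrays, with a difference of −0.52 (SE 0.18, interval −0.92 to −0.12, limma adjusted p = 0.196), and the PI 4 h arrays overlapped the untreated ones (−0.16, limma adjusted p = 0.782).

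SERPINE2, protease nexin-1, a secreted inhibitor of thrombin and urokinase, read 1471.3, 1342 and 1285 on PI 24 h arrays, 1388.8, 1359.9 and 1485.4 on PI 4 h arrays, and 1500.7, 1520.4 and 1697.2 on untreated arrays. All treated arrays were below all untreated arrays, by small amounts: the difference was −0.20 at 24 h (SE 0.11, interval −0.46 to 0.05, limma adjusted p = 0.436) and −0.15 at 4 h (limma adjusted p = 0.644). A second probe set of SERPINE2, with a mean of 20.12, read 0.45 for PI 24 h minus untreated, and the mean over both turned the sign to 0.13 (limma adjusted p = 0.838). SERPINI1, neuroserpin, an inhibitor of tissue plasminogen activator known from neurons, read 50.8, 51.2 and 50.4 on PI 24 h arrays, 45, 51.8 and 56.5 on PI 4 h arrays, and 50.2, 55.4 and 44 on untreated arrays. Its groups overlapped, and the interval of PI 24 h minus untreated was −0.24 to 0.29 (limma adjusted p = 0.95).

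The other bright clade B serpins were SERPINB1, which inhibits neutrophil elastase and its relatives, SERPINB5 (maspin), which is not known to inhibit a protease and is best known from breast epithelium, and SERPINB7 (megsin), described from kidney mesangium and skin. SERPINB7 read 173.6, 186 and 138.9 on PI 24 h arrays, 196, 191.9 and 242.7 on PI 4 h arrays, and 215.6, 203.9 and 234.9 on untreated arrays. Its PI 24 h arrays lay below all others, at −0.37 against untreated (SE 0.14, interval −0.69 to −0.05, limma adjusted p = 0.252) and −0.31 against PI 4 h (limma adjusted p = 0.453). SERPINB1 read 66.8, 46.9 and 61.7 on PI 24 h arrays, 80.5, 105.2 and 54.6 on PI 4 h arrays, and 79.2, 84 and 74.4 on untreated arrays. The PI 24 h arrays lay below the untreated ones and the PI 4 h arrays spread across both, with −0.36 for PI 24 h minus untreated (SE 0.20, interval −0.80 to 0.07, limma adjusted p = 0.411). The other 3 probe sets of SERPINB1, with means of 60.57, 36.79 and 3.689, read 0.26, 0.15 and 0.03, so that the mean over its 4 probe sets was 0.02 (limma adjusted p = 0.965). SERPINB5 read 499.6, 413.3 and 502.5 on PI 24 h arrays, 478.9, 405.5 and 540.5 on PI 4 h arrays, and 479.2, 486.9 and 608.5 on untreated arrays. Its groups overlapped, with −0.15 for PI 24 h minus untreated (interval −0.49 to 0.20, limma adjusted p = 0.713) and −0.14 for PI 4 h minus untreated (limma adjusted p = 0.777).

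**Figure D3:**
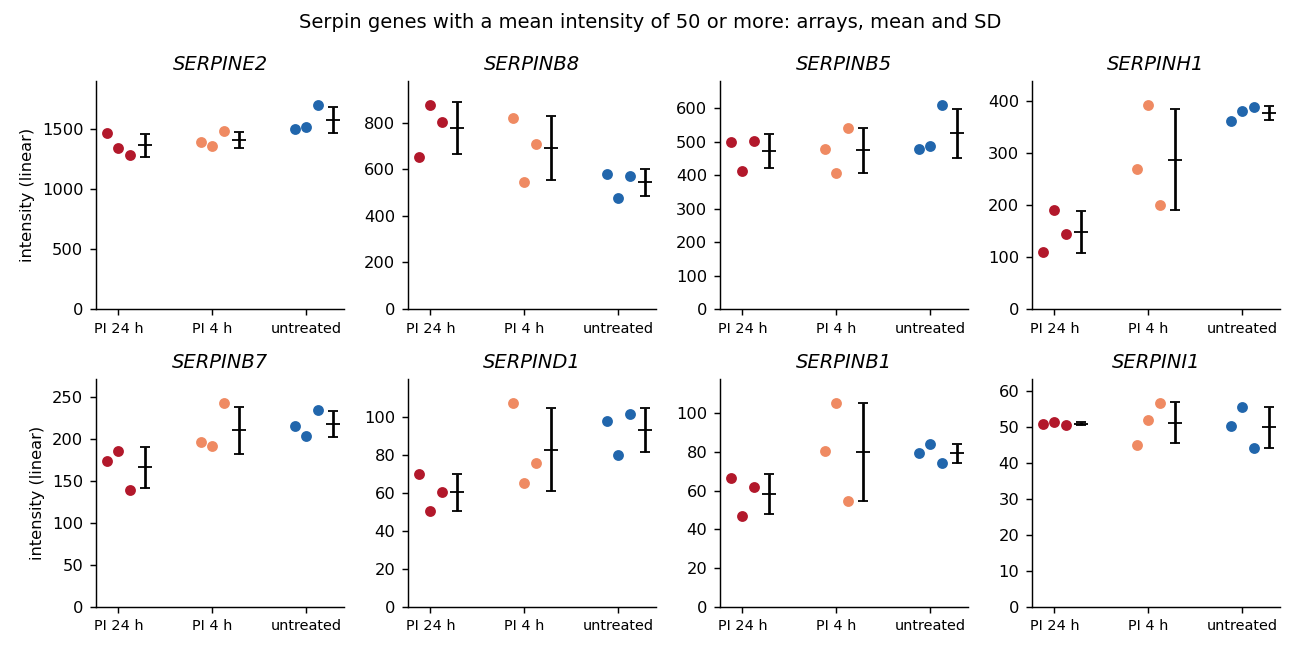
Linear intensity of the 8 serpin genes with a mean intensity of 50 or more, 1 panel per gene with its own axis from 0, as points for the 3 arrays of each group and a black mark with bar for mean and SD. At 24 h SERPINB8 (654.1 to 873.1) lies above all untreated arrays, and 5 serpins lie below them, among them SERPINH1 (110.1 to 190.3). Of all bright genes 21.3% lie above and 20.6% below without overlap, and none of the 8 serpins was called. SERPINI1 stays between 44 and 56.5.

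**Figure D4:**
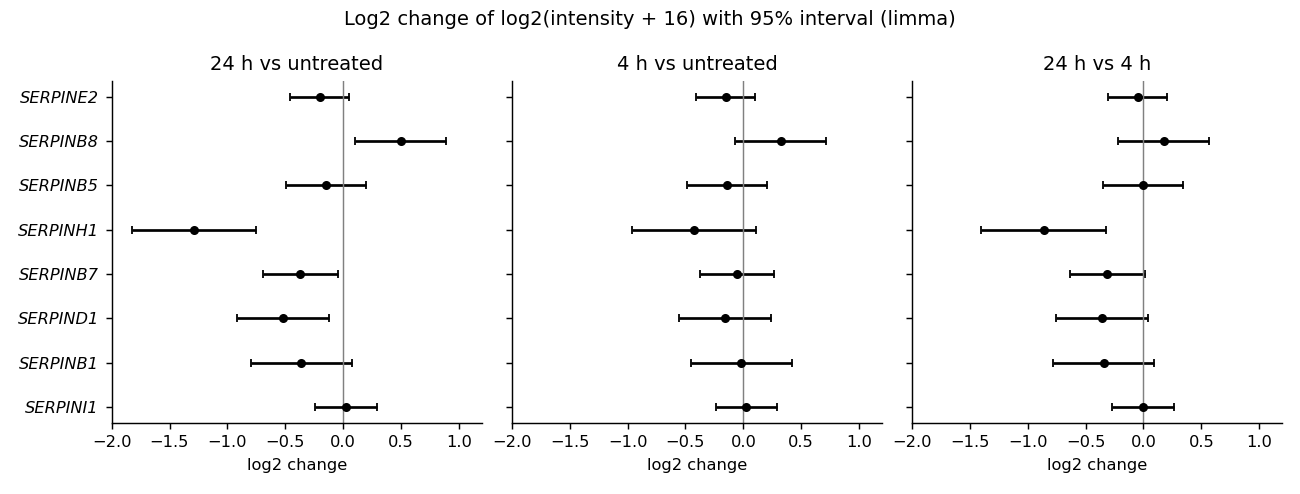
Differences of log2(intensity + 16) with 95% intervals from limma for the 8 serpins in PI 24 h minus untreated, PI 4 h minus untreated and PI 24 h minus PI 4 h. At 24 h the intervals of SERPINH1, SERPIND1 and SERPINB7 lie below 0 and that of SERPINB8 above it, before adjustment over all genes, and in PI 4 h minus untreated all 8 intervals include 0.

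Over the family, no serpin passed the threshold of a limma adjusted p under 0.05 in any comparison. For PI 24 h against untreated, 0 of 30 were called higher and 0 lower, where 0.217% of all genes were called higher (43) and 0.253% lower (50). For PI 4 h against untreated the serpin counts were again 0 and 0, beside 0.238% of all genes higher and 0.0152% lower, and for PI 24 h against PI 4 h 0 and 0, beside 0.0253% higher and 0.116% lower. The lowest adjusted p of a serpin was 0.0541, 0.27 and 0.215 in the 3 comparisons. Before adjustment, limma's p was under 0.05 for 6, 1 and 2 of the 30 (20%, 3.33% and 6.67%), against 15.8%, 12.3% and 11.4% of all genes.

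The signs leaned downward at 24 h. Of the 30, 21 had a negative difference for PI 24 h minus untreated and 9 a positive one, with a median of −0.14 where that of all genes was 0.01. Of the 8 bright serpins, 6 were negative, with a median of −0.28 against 0.01 for the 8838 bright genes. With the mean over probe sets in place of the brightest, 3 of those 6 turned positive, SERPINE2 at 0.13, SERPINB5 at 0.05 and SERPINB1 at 0.02. Groups that did not overlap were found for 3 serpins higher and 6 lower at 24 h, which is 10% and 20% of the family, beside 12.8% and 12.2% of all genes. For PI 4 h against untreated they were 2 higher and 2 lower, beside 9.36% and 8.15% of all genes, and for PI 24 h against PI 4 h 0 higher and 5 lower, beside 7.35% and 7.86%. The comparisons share arrays, so these counts are not separate evidence.

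The 22 dim serpins include the plasma inhibitors antithrombin (SERPINC1), C1 inhibitor (SERPING1) and all 10 genes of clade A. Their means ran from 2.556 to 29.32, single arrays from 0.3 to 36.5, and 21 of the 22 had means under 16, where 39.6% of all genes lie. The highest below 50 were SERPINA1, SERPINF1 (PEDF) and SERPINF2 (antiplasmin), at 29.32, 15.53 and 14.29. Detection calls were not used here, so how far such readings lie above background is unknown, and a fold at this level would be set by the pseudocount. Their limma adjusted p ranged from 0.072 to 0.988 at 24 h against untreated, and the lowest was that of SERPINB9, the inhibitor of granzyme B. SERPINB9 read 14.7, 15.2 and 8.8 on PI 24 h arrays, 8.6, 6.3 and 10.6 on PI 4 h arrays, and 4.4, 1.4 and 1.3 on untreated arrays, so treated arrays stood above all untreated ones at low readings. The difference was 0.65 at 24 h (limma adjusted p = 0.072) and 0.42 at 4 h (0.27), while its other probe sets read −0.19 and −0.03 at 24 h. The probe set at −0.19 read 10, 1 and 10.8 on untreated arrays, so the one taken had the higher mean through its treated arrays. The separation of SERPINB9 arrays was thus not independent of the choice of probe set.

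Of the 11 clade B genes analysed, 9 sit together on human chromosome 18, and brightness there was patchy. In the order of the RefSeq annotation, these 9 run SERPINB5, SERPINB12, SERPINB13, SERPINB4, SERPINB3, SERPINB11, SERPINB7, SERPINB10 and SERPINB8. SERPINB5 and SERPINB8 at the ends and SERPINB7 between them averaged 490.5, 669.7 and 198.2 over the 9 arrays, while the 6 genes among them averaged 2.878 to 11.3. The differences of SERPINB5, SERPINB8 and SERPINB7 at 24 h against untreated were −0.15, 0.50 and −0.37, none of them called. That of SERPINB5 turned to 0.053 with the mean over probe sets. The 9 clade A genes analysed on chromosome 14 were all dim (2.556 to 29.32). On chromosome 6, SERPINB1 averaged 72.59 and SERPINB9 7.922.

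The proteases that serpins are known to inhibit, the receptors and cofactors through which they act, other inhibitors of serine proteases, and procollagen with its folding enzymes were followed as lists. Of 38 target proteases measured, 0 were called in any comparison, and the median difference at 24 h was −0.02 (all genes 0.01). Over all genes 0.217% were called higher and 0.253% lower at 24 h against untreated, so a list of this size with none called lies near the background. Of the 9 bright target proteases, 8 were negative at 24 h, with a median of −0.28, beside 4351 of 8838 bright genes negative and a median of 0.01. The list was chosen with earlier results of these data known, so this count is not independent of its values. PLAU, the urokinase gene, averaged 1763 ± 291, 1691 ± 333 and 2009 ± 63.9 in PI 24 h, PI 4 h and untreated cells (SD, n = 3 each), with a limma adjusted p of 0.641 at 24 h. PLAT, the tissue activator, averaged 333.4 ± 35.6 in PI 24 h and 431.4 ± 61.8 in untreated cells (−0.35, limma adjusted p = 0.248). The smallest p of the list belonged to HTRA1, a secreted serine protease, which averaged 186.8 ± 16.5 in PI 24 h and 299.3 ± 6.04 in untreated cells (−0.64, limma adjusted p = 0.122). MASP2, of the lectin pathway of complement, averaged 8.333 ± 3.95 in PI 24 h and 21.3 ± 8.58 in untreated cells (−0.60, limma adjusted p = 0.144). It was dim, with a mean of 14.38 over the 9 arrays, and its other probe sets read 0.078 and −0.006 at 24 h.

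Of 18 receptors and cofactors, 0 were called in any comparison, again near the background of 0.217% higher and 0.253% lower at 24 h, and the median at 24 h was −0.02. PLAUR, the urokinase receptor, averaged 1192 ± 121, 1462 ± 183 and 1429 ± 26 in PI 24 h, PI 4 h and untreated cells, with −0.26 for PI 24 h minus untreated (limma adjusted p = 0.364). Other PLAUR probe sets, with means of 1055 and 174.7, read 0.02 and 0.11 at 24 h. The smallest p values were those of F3 (tissue factor, −0.72, limma adjusted p = 0.0737), LRP8 (an LDL receptor relative, 0.54, 0.0931) and SDC1 (syndecan 1, a heparan sulphate proteoglycan, −0.47, 0.117). F3 averaged 85.43 ± 15.9 in PI 24 h and 149.2 ± 3.24 in untreated cells, LRP8 203 ± 4.37 and 135.7 ± 21.5 in the same order, and SDC1 716.9 ± 70.6 and 997.3 ± 47.8. The LRP8 probe set taken had a mean of 160.3. Others of the gene, with means of 160.1 and 100.1, read 0.17 and 0.08 at 24 h. Of 24 other inhibitors of serine proteases, 0 were called at 24 h against untreated, beside the same 0.217% and 0.253% of all genes, with a median of −0.00. SPINK1, the pancreatic secretory trypsin inhibitor, averaged 62.13 ± 5.5 in PI 24 h and 29.67 ± 5.57 in untreated cells (0.78, limma adjusted p = 0.0541), with no overlap of arrays. SPINK1 was dim, with a mean of 41.4 over all arrays. The alpha-2-macroglobulin relative A2ML1 (0.61, limma adjusted p = 0.176) and the elastase inhibitor PI3 (−0.56, 0.189) were dim too. The other probe set of A2ML1, with a mean of 7.389, read 0.159 at 24 h, and that of PI3, with a mean of 6.756, read 0.025. The differences of A2ML1 and PI3 thus depended on the probe set taken.

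Of 29 genes of procollagen and its folding, apart from SERPINH1, 1 was called at 24 h against untreated (0.217% of all genes were called higher and 0.253% lower) and 0 at 4 h against untreated or at 24 h against 4 h. COL3A1, a chain of type III collagen, averaged 19.83 ± 9.02 in PI 24 h and 2.133 ± 0.551 in untreated cells (0.95, limma adjusted p = 0.0487). Intensities were low, and 1 of its 5 probe sets was of opposite sign. The probe set taken was the brightest (mean 8.133) through its PI 24 h arrays alone, since it averaged 2.433 in PI 4 h cells. The next (mean 6.378) read −0.11, and the rest read 0.25, 0.21 and 0.12. The call was thus not independent of the choice of probe set. The call on COL3A1 was lost in 12 of the 17 other settings that gave it a value, with adjusted p from 0.0156 to 0.376. The list's median at 24 h was −0.16 over all 29 and −0.05 over the 20 bright genes. Before adjustment limma's p was under 0.05 for 12 of 29 genes (41.4%), in both directions, against 15.8% of all genes, and for 9 of the 20 bright ones (45%), against 24.8% of all bright genes. The list was chosen with earlier results of these data known, so these shares are not independent of its values and test nothing about the list. Chosen after their values were seen, P4HA2, a catalytic subunit of collagen prolyl 4-hydroxylase, averaged 502.7 ± 24.9 in PI 24 h and 295.8 ± 31.2 in untreated cells (0.74, limma adjusted p = 0.0502), and its partner subunit P4HB averaged 1392 ± 112 and 2094 ± 110 in the same order (−0.58, limma adjusted p = 0.148). FKBP10, a prolyl isomerase, and PLOD3, a lysyl hydroxylase, read −0.50 each (limma adjusted p = 0.153 and 0.161). COL1A1 and COL1A2, the chains of the type I collagen that HSP47 is best known to bind, had means of 41.39 and 15.93 over the 9 arrays, and COL4A1 and COL4A2 had 347.1 and 378.8. Read through different probe sets, these means do not rank the mRNAs of the chains.

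**Figure D5:**
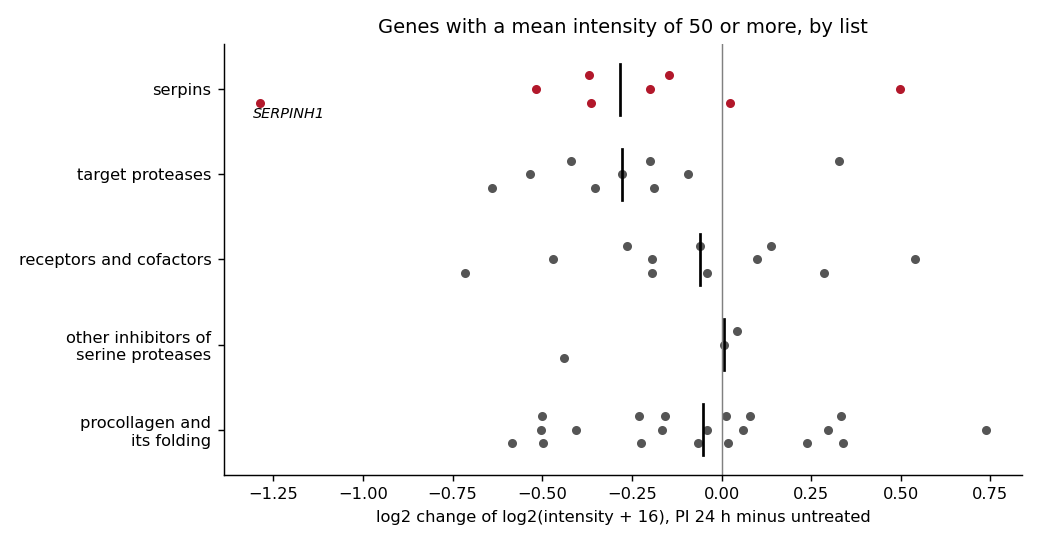
Differences of log2(intensity + 16), PI 24 h minus untreated, of genes with a mean intensity of 50 or more, for the 8 serpins (red, top row) and for 9 target proteases, 11 receptors and cofactors, 3 other inhibitors of serine proteases and 20 genes of procollagen and its folding (grey), each point 1 gene and each black line the median. SERPINH1 lies farthest left at −1.29, and the medians from top to bottom are −0.28, −0.28, −0.06, 0.01 and −0.05.

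The arrays were alike in scale, with a trimmed mean of 100 and median intensities of 14.2 to 18.2. The spiked-in poly-A controls averaged 10.52 to 10.55 on the log2 scale in PI 24 h arrays, 9.91 to 10.34 in PI 4 h arrays and 9.09 to 9.22 in untreated arrays (exact permutation p = 0.1 for each pair of groups, two-sided, the smallest that 3 against 3 can give), and the ACTB ratio gave an exact permutation p of 0.1 for PI 24 h against untreated. The labelled cell type fits its markers in part: 8 of 10 mesenchymal markers reached 50 (summed intensity 20981.1 to 21677.5 in PI 24 h, 20622.3 to 23485 in PI 4 h and 20164.9 to 22602.7 in untreated arrays, VIM giving the largest part), and of 9 epithelial markers only KRT8 and KRT18 did. KRT8 read −0.74 for PI 24 h minus untreated (limma adjusted p = 0.0715). No leukocyte marker (5 measured), endothelial marker (6) or hepatocyte marker (7) reached 50. The hepatocyte markers summed to 80.6 to 132.2 in PI 24 h, 78.9 to 143.9 in PI 4 h and 53.4 to 86.6 in untreated arrays, and their part in the readings of the dim plasma serpins was not tested. The endothelial markers summed to 88.3 to 134 in PI 24 h, 80.1 to 128 in PI 4 h and 49.8 to 62.4 in untreated arrays.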

How the data were processed

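RNA of 9 HT1080 cultures was read on Affymetrix arrays, 1 array per culture, and the design text calls the replicates biological. The table the authors deposited holds linear intensities per probe set with a trimmed mean of 100 on every array; R 2.9.2 and RMA are listed, with no role stated, in the submitters' processing notes, which leaves the background correction unknown. Of 54675 probe sets, 62 controls were left out, and 41091 name 1 gene, 1801 several and 11721 are not listed in the annotation used. Each of 19775 genes was read through its probe set of highest mean intensity. Differences were taken on log2(intensity + 16), which understates those of dim genes, with limma 3.58.1 in R 4.3.3 (1 mean per group over all 9 arrays, empirical Bayes, two-sided, Benjamini-Hochberg over all genes, threshold 0.05, 95% intervals unadjusted), and the fit was tested on simulated data. A mean intensity of 50 separated bright from dim genes. Differences in array measures used exact permutation tests. The number of arrays limits the precision.

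Serpins with a mean of 50 or more were described array by array. Of each list, members past the threshold were named, otherwise the 3 with the smallest p at 24 h, with PLAU, PLAT, PLAUR and AGT named whatever their test. Members and lists were chosen with earlier results of these data known. Of the lists, 1 target protease, 3 receptors and cofactors, 1 other inhibitor, 1 procollagen gene and 2 leukocyte markers were not analysed here. RefSeq windows and gene order were from GRCh38.p14. Alternatives tried were other pseudocounts, quantile and median scaling, the mean over probe sets, a filter on dim genes, the compared groups alone, an intensity trend, the replicate number as a block, and leaving out each array.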

Additional observations from a re-analysis of the deposited data

How the results depend on the processing

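Across 18 other settings, 9 of processing and 9 that left out 1 array, 5 of the 6 counts of called serpins were 0 in each. The count of serpins lower at 24 h against untreated, 0 as reported, was 1 (SERPINH1) with a pseudocount of 64, with genes under the 40th percentile of mean intensity left out, with the compared groups alone and with an intensity trend, and 0 to 1 over the arrays left out. SERPINH1's adjusted p was 0.0161, 0.0198, 0.0465 and 0.00513 under those 4 settings, 0.031 without the second and 0.048 without the third PI 4 h array, and 0.132 with a pseudocount of 1. Its difference was −1.47 to −1.11 over the arrays left out. The cause was not tested. Of 24 differences of the 8 bright serpins, 12 turned sign in some setting, none of them called. With the mean over probe sets the turned values were 0.125 (SERPINE2), 0.053 (SERPINB5) and 0.019 (SERPINB1) at 24 h against untreated, 0.034 (SERPINB5) and 0.039 (SERPINB1) at 4 h against untreated, and 0.212 (SERPINE2), −0.035 (SERPINB8) and 0.018 (SERPINB5) at 24 h against 4 h. Under quantile scaling and median centring SERPINI1 read −0.005 and −0.008 at 4 h against untreated and 0.033 and 0.031 at 24 h against 4 h, and SERPINB5 read 0.028 at 24 h against 4 h under median centring. Over the arrays left out, SERPINI1 ranged from −0.042 to 0.084 at 24 h against untreated, −0.039 to 0.094 at 4 h against untreated and −0.070 to 0.055 at 24 h against 4 h, SERPINB5 from −0.111 to 0.090 at 24 h against 4 h, SERPINB7 from −0.155 to 0.002 and SERPINB1 from −0.205 to 0.185 at 4 h against untreated, and AGT from −0.144 to 0.048 at 24 h against untreated. Settings for genes outside the bright serpins were run after seeing the data: 8 such genes outside the family were called in some of them, P4HA2 in 6. Over all genes, the calls at 24 h against untreated (43 higher, 50 lower as reported) were 0 and 1 with a pseudocount of 1 and 422 and 411 with one of 64. Over the 9 processing settings they spanned 0 to 426 higher and 1 to 411 lower, against 2 to 184 and 0 to 89 at 4 h against untreated (47 and 3 as reported) and 0 to 105 and 1 to 139 at 24 h against 4 h (5 and 23). Over the arrays left out they spanned 0 to 106 higher and 0 to 150 lower at 24 h against untreated (0 and 0 without the first or the second PI 24 h array, 106 and 150 without the second PI 4 h array), 2 to 15 and 0 to 1 at 4 h against untreated, and 1 to 3 and 5 to 15 at 24 h against 4 h. With the replicate number as a block the calls at 24 h against untreated were 0 and 1, no serpin was called, and SERPINH1 had an adjusted p of 0.0855. Arrays of the same number deviated together little (r between −0.21 and 0.15 over bright genes), so the numbers were not taken as pairs.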

Other observations

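AGT, the gene of angiotensinogen, belongs to the serpin family by structure under a symbol outside the rule. It averaged 34.53 ± 4.52 in PI 24 h, 37.8 ± 11.3 in PI 4 h and 35.7 ± 6.99 in untreated cells (SD, n = 3 each), with overlapping arrays and limma adjusted p of 0.962 for PI 24 h and 0.953 for PI 4 h against untreated. A probe set that names both SERPINB3 and SERPINB4, the squamous cell carcinoma antigens, read 2, 18.1 and 1.8 on PI 24 h arrays, 13.9, 28.5 and 22.8 on PI 4 h arrays, and 19.4, 9.1 and 10.4 on untreated arrays. Its groups overlapped at low readings, and PI 24 h minus PI 4 h was −0.75 (limma adjusted p = 0.426).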
